A study of Homo sapiens with 17 samples.

Results

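The genes described here are 40 genes of the stress response of the endoplasmic reticulum (ER), taken as a named list of transcripts. They were measured on 17 microarrays of NKYS, a human natural killer/T-cell lymphoma line grown in medium with 10% serum and 100 IU/mL interleukin-2. Each gene was represented by its brightest probe set among those annotated to a single gene symbol. Of the 40 genes, 39 had such a probe set, among 18377 genes on the array, and 38 were bright enough to be tested. The exception in measurement was PDIA3, a disulfide isomerase, whose probe sets carry several symbols. VLDLR, a lipoprotein receptor, read 33.3 to 45.3 on all arrays and stayed below the brightness filter.

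Cells were electroporated with JAK3 siRNA (2 arrays), control siRNA for that arm (2 arrays), EZH2 siRNA (2 arrays) or control siRNA tied by title to each EZH2 siRNA array (2 arrays). JAK3 is the tyrosine kinase of the interleukin-2 receptor, and EZH2 is the methyltransferase of Polycomb repressive complex 2. A further 9 arrays came from cells given plasmids: empty vector (2 arrays), EZH2 titled Y244D, Y244A or WT (2 arrays each), and 1 array titled SET∆, a form without the catalytic SET domain. Y244D and Y244A exchange a tyrosine of EZH2 for aspartate or alanine. The titles number vector and full-length plasmid arrays as set 1 or set 2, except that 1 WT title carries no number and was placed in set 2. In set 2 the titles and the transfection entries name different constructs. Constructs are therefore given by title, and the comparison of Y244D with Y244A is given under both readings. All cells are of 1 line, no time after electroporation is given, and the labels do not state separate cultures for the arrays within a group. The p-values therefore measure the spread between arrays, which may be technical.

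The unfolded protein response runs from 3 sensors in the ER membrane. EIF2AK3 (PERK) phosphorylates the translation factor eIF2, which favours translation of the ATF4 messenger, and ATF4 then switches on genes of amino acid synthesis and stress feedback. ERN1 (IRE1) splices the XBP1 messenger, and ATF6 is cut to release a transcription factor. Together the latter pair induce chaperones, folding enzymes and the machinery of ER-associated degradation. Other eIF2 kinases also feed ATF4, so its targets can move without the chaperones. The genes were accordingly read as an ATF4 branch (19 genes, 18 tested), a chaperone branch driven by XBP1 and ATF6 (18 genes, 17 tested) and the 3 sensors. Splicing of XBP1, cleavage of ATF6 and translation of ATF4 were not measured by these arrays.

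Some promoters of the listed genes, though not most of those in the ATF4 branch, hold the letters by which the branches are usually told apart. RefSeq promoter sequence (GRCh38.p14, 250 bases before to 50 after a start site) was at hand for 37 of the 40 genes. The amino acid response element, searched as TGATGNAA on both strands, lay in 4 of 17 ATF4-branch genes and 1 of 17 chaperone-branch genes, against 4.46% of 27305 genes and 3.62% of 35116 promoters. The ATF4-branch matches are printed first, 5′ to 3′ along the gene's strand, with the fixed bases of the motif in capitals.
ATF3, the stress-induced repressor (chr1:212565206-212565233, plus strand): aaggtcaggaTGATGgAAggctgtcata
CHAC1, a glutathione-degrading enzyme (chr15:40953252-40953279, plus strand, motif reversed): tcccctgccgTTgCATCActcctgccag
ASNS, asparagine synthetase (chr7:97872459-97872486, minus strand): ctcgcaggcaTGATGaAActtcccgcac
CEBPG, a dimer partner of ATF4 (chr19:33374061-33374088, plus strand): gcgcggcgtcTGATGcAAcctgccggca
The motif is a description of letters, not evidence that a factor was bound in these cells.

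The ER stress element, CCAAT and CCACG separated by 9 bases, lay in 7 of 17 chaperone-branch genes and in 0 of 17 ATF4-branch genes. It occurred in 0.0916% of all genes and 0.0769% of all promoters. The 7 genes were XBP1, HSPA5, HSP90B1, PDIA6, CALR, CANX and CRELD2, and 3 are printed because their values are described below.
XBP1, the transcription factor of the branch (chr22:28800593-28800631, minus strand): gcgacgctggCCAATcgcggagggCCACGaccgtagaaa
HSP90B1, the ER form of HSP90 (chr12:103930206-103930244, plus strand): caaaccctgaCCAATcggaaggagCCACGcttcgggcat
PDIA6, a disulfide isomerase (chr2:10812843-10812881, minus strand): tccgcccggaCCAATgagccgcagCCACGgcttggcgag
The second form of the element, ATTGG and CCACG separated by 1 base, lay in HERPUD1 and SDF2L1, and in 0.0696% of all genes and 0.0541% of all promoters. HERPUD1, which encodes a ubiquitin-like membrane protein of ER-associated degradation, was the only one of the 37 to hold a match of both the ATF4 type and an ER stress type. Its 250 bases before the start site (chr16:56931892-56932141, plus strand) are printed with both matches in capitals, and those of HSPA5, the chaperone BiP (chr9:125241344-125241593, minus strand), follow for comparison.
HERPUD1: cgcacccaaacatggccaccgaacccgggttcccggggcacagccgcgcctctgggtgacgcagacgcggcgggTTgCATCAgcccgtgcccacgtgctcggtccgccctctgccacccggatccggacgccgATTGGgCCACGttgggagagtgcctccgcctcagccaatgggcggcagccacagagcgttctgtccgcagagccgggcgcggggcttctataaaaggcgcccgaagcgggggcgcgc
HSPA5: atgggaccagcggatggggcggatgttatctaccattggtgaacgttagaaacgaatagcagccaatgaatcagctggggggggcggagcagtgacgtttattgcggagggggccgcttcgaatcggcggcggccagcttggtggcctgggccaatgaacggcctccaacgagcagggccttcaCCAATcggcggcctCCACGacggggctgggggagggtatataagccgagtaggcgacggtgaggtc

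The labels were checked on their target transcripts. JAK3 read 138 and 137 with JAK3 siRNA and 322 and 326 with its controls. EZH2 read 501 and 489 with EZH2 siRNA and 926 and 691 with its paired controls, so the control of pair 2 was the lower. On the plasmid arrays EZH2 read 259 and 349 with vector and 803 to 2221 with full-length plasmids. The spread of an array, taken as its log2 interquartile range, ran from 2.265 to 2.33 for siRNA and from 1.79 to 2.183 for plasmids, with vector 1 the lowest of all. Of 10 natural killer cell markers, 7 were above the array median on every siRNA array. The same held for 2 of 4 B-cell, 1 of 5 monocyte and 3 of 6 epithelial and fibroblast markers. The T-cell markers CD3D and CD3G read at most 41.9 on any array. Of 7 T-cell markers, only CD4 was above the array median on every siRNA array. Its log2 change with EZH2 siRNA was 0.29 ± 0.07 (limma, adjusted p = 0.0693), and its part in the results below was not tested. The precision of every value is limited by the number of arrays.

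EZH2 siRNA raised 2 genes of the ATF4 branch, DDIT3 and PSAT1, and left no chaperone-branch gene past the threshold. The threshold was an adjusted p of 0.05 from limma, with Benjamini-Hochberg adjustment over all 14466 genes tested, of which 0.940% passed. With no replicate block 0 of the 38 genes passed, against 0.138% of all genes. The limma adjusted p was then 0.0771 for DDIT3 and 0.0683 for PSAT1. Without the brightness filter or with array weights, 0 of the 38 and 0% of all genes passed, so those counts say nothing about the 38 genes. Within the ATF4 branch 17 of 18 genes had a log2 change above 0, against 48.2% of all genes, and the branch median was 0.239. Within the chaperone branch 3 of 17 genes were above 0 and the median was -0.059. The median of all genes tested was -0.004. At an unadjusted p under 0.05, 10 of 18 ATF4-branch genes passed, all above 0, and 4 of 17 chaperone-branch genes passed, all below 0, against 15.6% of all genes in either direction.

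DDIT3 encodes CHOP, the transcription factor of prolonged ER stress. It read 118 and 92.4 with EZH2 siRNA and 77.1 and 75.4 on the paired controls. Both knockdown arrays were above both controls, and the array of pair 1 was the higher. The log2 change was 0.45 ± 0.09 (SE, 2 pairs, limma, adjusted p = 0.0444). Without pair 1 the change was 0.29 and without pair 2 it was 0.61, each from a lone pair.

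PSAT1 encodes the aminotransferase of serine synthesis. It read 572 and 556 with EZH2 siRNA and 431 and 459 on the controls. The groups did not overlap, and the pairs were close. The log2 change was 0.34 ± 0.07 (SE, 2 pairs, limma, adjusted p = 0.0487). Without pair 1 it was 0.28 and without pair 2 it was 0.41, each from a lone pair. The neighbouring enzymes of serine synthesis gave other values. PSPH, the phosphatase that follows PSAT1, changed by 0.08 ± 0.10, and PHGDH, the dehydrogenase that opens the pathway, by -0.06 ± 0.07, the lowest value of the branch. PHGDH read 52.5 to 58.2 on the siRNA arrays, close to the array medians of 60.3 to 62.5. Another probe set that carries the PHGDH symbol beside a second symbol read 582 to 778. It changed by -0.001 with EZH2 siRNA and by -0.287 with JAK3 siRNA, so both the level and the change of PHGDH are uncertain. PSPH has 2 probe sets, and for EZH2 siRNA they gave 0.08 and 0.05.

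The largest differences of the branch belonged to genes that rested on pair 1. CTH, the cysteine-forming enzyme of transsulfuration, read 212 and 168 with EZH2 siRNA and 83.4 and 139 on the controls. Its log2 change was 0.81 ± 0.18 (SE, 2 pairs, limma, adjusted p = 0.0556), made of 1.34 in pair 1 and 0.28 in pair 2. DDIT4, a stress-induced inhibitor of mTORC1, read 560 and 353 with EZH2 siRNA and 223 and 370 on the controls. Its change of 0.63 ± 0.21 (limma, adjusted p = 0.169) was made of 1.33 in pair 1 and -0.07 in pair 2. For both genes the control of pair 1 was the lowest of the 8 siRNA arrays.

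ATF4 itself read 322 and 346 with EZH2 siRNA and 263.5 and 295.5 on the controls. Its log2 change was 0.26 ± 0.09 (SE, 2 pairs, limma, adjusted p = 0.185), with 0.29 in pair 1 and 0.23 in pair 2. The other transcription factors spread from ATF3 at 0.36 ± 0.11 through CEBPG at 0.15 ± 0.09 and CEBPB at 0.07 ± 0.09 to NUPR1 and ATF5, both at 0.02. Among feedback genes, PPP1R15A, the eIF2 phosphatase subunit GADD34, was at 0.34 ± 0.10 and TRIB3, a pseudokinase that binds ATF4, at 0.27 ± 0.08. SESN2, a leucine-binding stress protein, was at 0.33 ± 0.09 and CHAC1 at 0.22 ± 0.08. ASNS was at 0.05 ± 0.07 and STC2, a secreted glycoprotein, at 0.04 ± 0.07. None of these 12 passed the adjusted threshold.

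On the chaperone side XBP1 read 382.5 and 433 with EZH2 siRNA and 408 and 415 on the controls, and the groups overlapped. HSPA5 read 1263 and 1341 against 1536 and 1401, a log2 change of -0.17 ± 0.08 (limma, adjusted p = 0.293). SDF2L1, a partner of the BiP co-chaperones, had the lowest value of the branch. It read 110.5 and 129 against 158 and 133, a change of -0.28 ± 0.10 (limma, adjusted p = 0.183), with -0.51 in pair 1 and -0.04 in pair 2. MANF, a secreted ER protein, was at -0.26 ± 0.07 (adjusted p = 0.111) with -0.31 and -0.21 in the pairs. The highest value of the branch was that of DNAJB9, a BiP co-chaperone, at 0.15 ± 0.08, with 76.1 and 64.8 against 62.1 and 64.3. The lectin chaperones CALR and CANX were at -0.18 ± 0.08 and -0.06 ± 0.07, and HSP90B1 at 0.00. The sensors ERN1, EIF2AK3 and ATF6 were at 0.13, 0.00 and 0.00.

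**Figure D1:**
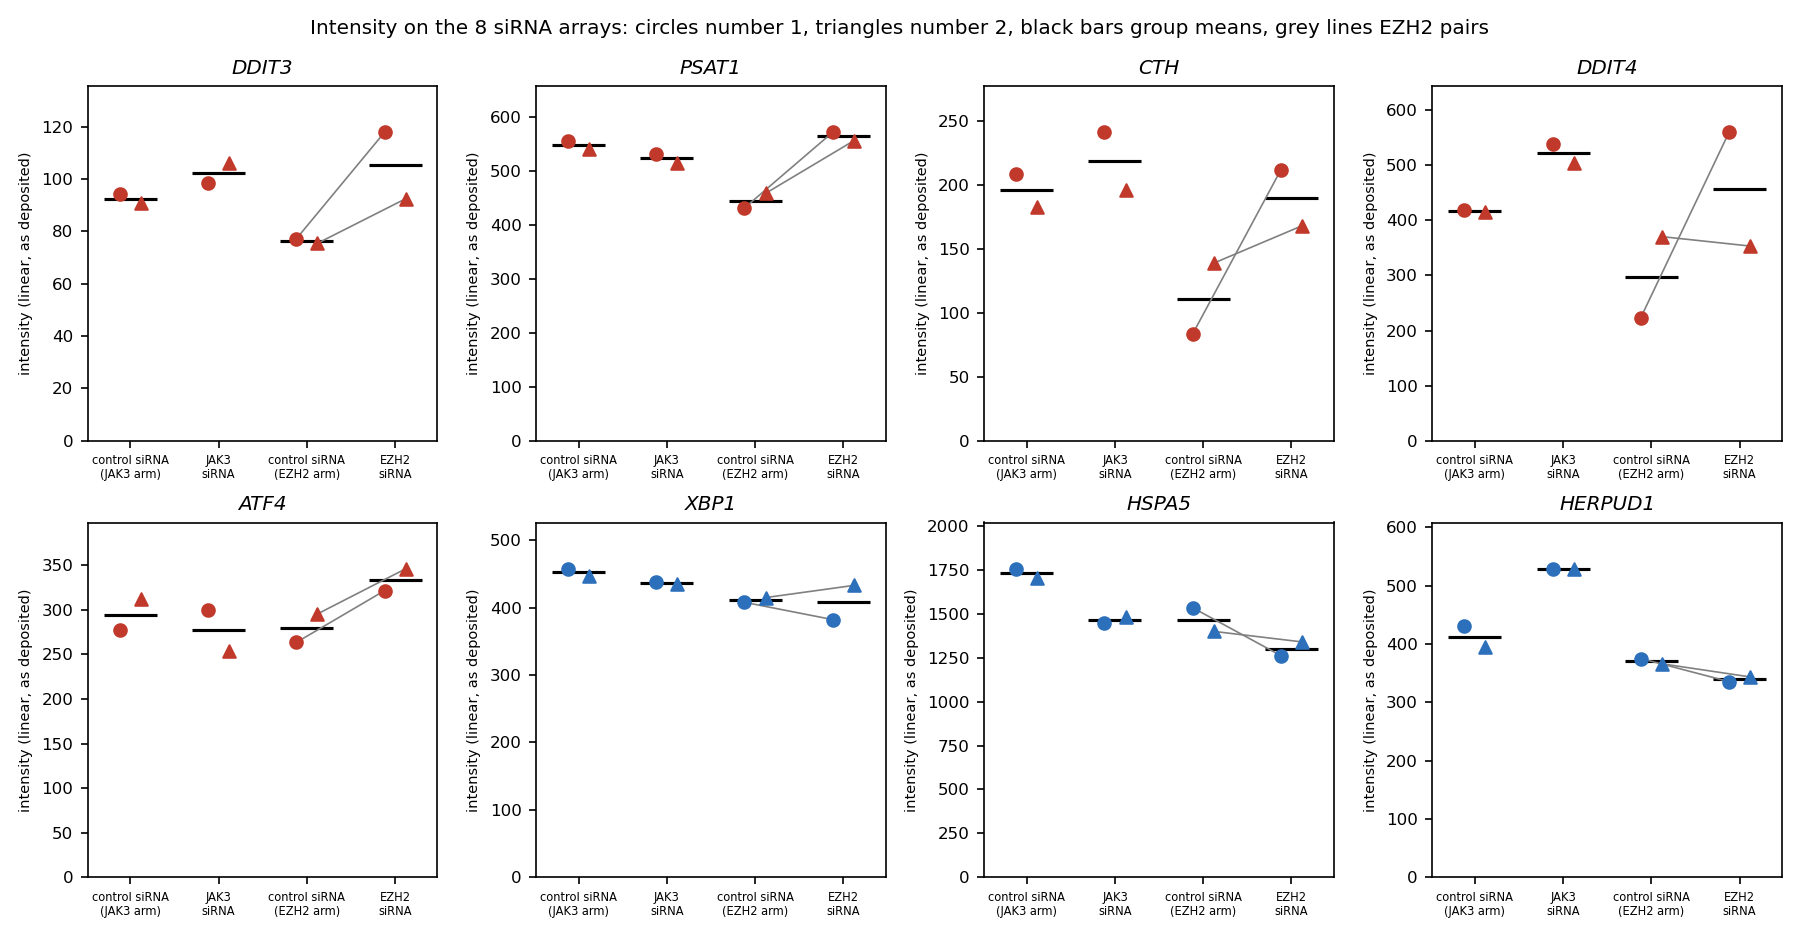
Linear intensity of 8 genes on the 8 siRNA arrays, by group, with number 1 as circles, number 2 as triangles, group means as black bars and EZH2 pairs joined by grey lines (ATF4 branch red, chaperone branch blue). DDIT3 and PSAT1 lie higher with EZH2 siRNA than on both paired controls, CTH and DDIT4 are low on the control of pair 1, and HERPUD1 reads 529 and 528 with JAK3 siRNA.

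The branches stood further apart in pair 1 than in pair 2. In pair 1 the ATF4-branch median was 0.344 and the chaperone-branch median -0.090. In pair 2 they were 0.079 and -0.041, and the ATF4 branch had 12 of 18 genes above 0, against 53.3% of all genes. When either array of pair 2 was left out, 13 of 38 genes passed the adjusted threshold, against 10.4% of all genes. The 11 that were higher were ATF3, CEBPG, CHAC1, CTH, DDIT3, DDIT4, EDEM1, PPP1R15A, PSAT1, SESN2 and TRIB3, and the 2 that were lower were PDIA6 and SDF2L1. That fit takes the spread of a lone pair from the JAK3 arm. When either array of pair 1 was left out, the ATF4-branch median was 0.079 and the chaperone-branch median -0.041, beside 0.011 for all genes. That fit also rests on a lone pair, so no conclusion is drawn from its calls. The sum of 10 natural killer markers moved with the same array. It was 7060 on the control of pair 1, 10370 on the control of pair 2, and 11310 and 10880 on the EZH2 siRNA arrays, and its part in the result was not tested. In bulk RNA, fewer cells of a type and less RNA per cell cannot be told apart.

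Levels on the control arrays of the 2 arms also differed for many genes. Both controls of the EZH2 arm lay below both controls of the JAK3 arm for 10 of 18 ATF4-branch genes and 13 of 17 chaperone-branch genes, against 24.9% of all genes. The median difference between the controls was -0.149 for the ATF4 branch and -0.186 for the chaperone branch, beside -0.010 for all genes. PSAT1, for example, read 555 and 541 on the controls of the JAK3 arm, close to its 572 and 556 with EZH2 siRNA. DDIT3 read 94.3 and 90.6 there, beside 118 and 92.4 with EZH2 siRNA. The titles give each arm its own controls and no batch, so the source of these offsets cannot be told apart from the arm.

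**Figure D2:**
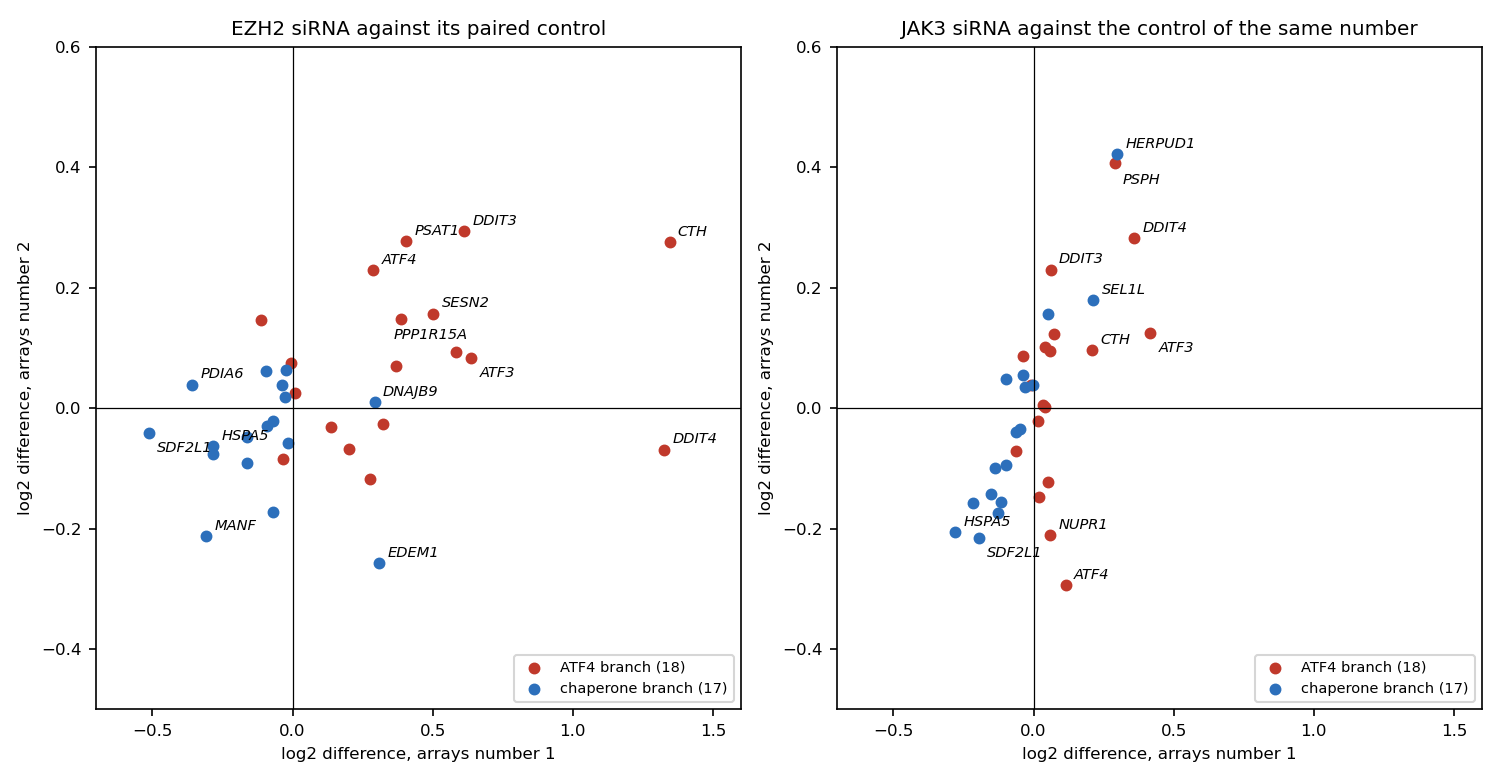
Log2 difference of 18 ATF4-branch genes (red) and 17 chaperone-branch genes (blue), arrays number 1 on the horizontal axis and number 2 on the vertical axis, for EZH2 siRNA (left) and JAK3 siRNA (right). With EZH2 siRNA, CTH and DDIT4 lie at 1.34 and 1.33 in pair 1 and at 0.28 and -0.07 in pair 2, and with JAK3 siRNA HERPUD1 lies at 0.30 and 0.42.

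JAK3 siRNA raised 1 of the 38 genes tested, HERPUD1, where 1.38% of all genes passed the same threshold. HERPUD1 read 529 and 528 with JAK3 siRNA and 431 and 394 on the controls. The knockdown arrays were nearly equal and lay above both controls. The log2 change was 0.36 ± 0.07 (SE, n = 2 and 2, limma, adjusted p = 0.0344). Leaving out any 1 of the 4 arrays kept the change between 0.295 and 0.424 and moved the adjusted p to between 0.144 and 0.364. With EZH2 siRNA the same gene read 335 and 343 against 375 and 366, a change of -0.13 ± 0.07 (limma, adjusted p = 0.454).

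The chaperone branch had a median log2 change of -0.051 with JAK3 siRNA, with 6 of 17 genes above 0, against 45.8% of all genes. HSPA5 had the lowest value. It read 1448 and 1481 against 1758 and 1707, with no overlap between the groups, a change of -0.24 ± 0.08 (limma, adjusted p = 0.178). HSP90B1 was at -0.19 ± 0.07, with 4044 and 4012 against 4700 and 4476 (limma, adjusted p = 0.286). XBP1 read 438.5 and 436 against 458 and 448, a change of -0.05 ± 0.07. SEL1L, the adaptor of the ubiquitin ligase SYVN1, was at 0.20 ± 0.07 (adjusted p = 0.241), SYVN1 at 0.10 ± 0.08 and EDEM1, a mannosidase-like protein, at 0.01 ± 0.11. At an unadjusted p under 0.05, 4 of 17 chaperone-branch genes passed, 2 above and 2 below 0, beside 2 of 18 ATF4-branch genes, against 12.4% of all genes.

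The ATF4 branch had a median of 0.023 with JAK3 siRNA, 12 of 18 genes being above 0. ATF4 read 300.1 and 254 against 277 and 312, and the groups overlapped. Its change of -0.09 ± 0.09 was the lowest of the branch among the single-symbol probe sets used. DDIT3 read 98.4 and 106 against 94.3 and 90.6, a change of 0.14 ± 0.09 (adjusted p = 0.558). PSPH had the highest value, with 304 and 289 against 249 and 218. Its change was 0.35 ± 0.10 (limma, adjusted p = 0.134), and its 2 probe sets gave 0.35 and 0.33. PSAT1, which rose with EZH2 siRNA, was at -0.07 ± 0.07 here, and CTH at 0.15 ± 0.18. DDIT4 was at 0.32 ± 0.21 and ATF3 at 0.27 ± 0.11. Between arrays of the same number the ATF4-branch medians were 0.055 and 0.062, and those of the chaperone branch were -0.098 and -0.039. The sensors were at 0.08 for ERN1, -0.10 for EIF2AK3 and -0.11 for ATF6.

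The difference between the knockdowns was tested on its own, as the JAK3 effect minus the EZH2 effect, and none of the 38 genes passed in limma, against 0.366% of all genes. At an unadjusted p under 0.05, 7 of 38 passed, against 8.14%. For the ATF4 branch 16 of 18 differences were below 0, where 50.1% of all genes were above 0, and the median was -0.163. CTH was the lowest at -0.66 ± 0.26 (adjusted p = 0.495) and PSPH the highest at 0.27 ± 0.14. PSAT1 was at -0.41 ± 0.10 (adjusted p = 0.155) and ATF4 at -0.35 ± 0.13 (adjusted p = 0.45). The chaperone-branch median was 0.005. Its highest value was that of HERPUD1 at 0.49 ± 0.10 (adjusted p = 0.0882) and its lowest that of HSP90B1 at -0.19 ± 0.10. When either array of EZH2 pair 2 was left out, the ATF4-branch median was -0.335 and the chaperone-branch median 0.043, beside 0.023 for all genes. Without either array of EZH2 pair 1 they were -0.035 and -0.019, beside -0.021 for all genes.

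Other genes of the same pathways were counted from lists that do not hold the 40 genes. Among 24 tested transporters, enzymes and tRNA synthetases known as ATF4 targets, EZH2 siRNA raised 1, WARS1, the tryptophanyl-tRNA synthetase, with a log2 change of 0.41 ± 0.08 (limma, adjusted p = 0.0449). The median of that list was 0.096. At an unadjusted p under 0.05, 10 of the 24 passed, beside 15.6% of all genes, 7 above 0 and 3 below it. Those below were ALDH18A1 at -0.37, PYCR1 at -0.21 and EPRS1 at -0.19. With JAK3 siRNA none of the 24 passed in limma, 3 had an unadjusted p under 0.05, beside 12.4% of all genes, and the median of the list was -0.064. Among 30 further genes of ER folding and export, none passed in limma with either siRNA. The medians were -0.10 for EZH2 siRNA and -0.07 for JAK3 siRNA, and 4 and 2 of the genes had an unadjusted p under 0.05. Among 12 genes around eIF2 (its alpha subunit, kinases, the exchange factor eIF2B, GCN1, IMPACT and the phosphatase subunit PPP1R15B), 11 were below 0 with EZH2 siRNA, with a median of -0.19. None passed in limma, and 8 had an unadjusted p under 0.05. With JAK3 siRNA 10 of the 12 were below 0, and EIF2S1, the subunit of eIF2 that carries the phosphorylation site, fell by 0.33 on the log2 scale (SE 0.07, limma, adjusted p = 0.0465). Of 9 natural killer markers tested, 4 were above 0 and 5 below 0 with JAK3 siRNA. KLRD1 and NCAM1 fell, by 0.47 and 0.36 on the log2 scale (limma, adjusted p = 0.00991 and 0.0298), and NCR1 was at 0.31 ± 0.08 (adjusted p = 0.0835). Summed over 10 markers, the level was 9421 and 9492 with JAK3 siRNA and 9219 and 9270 on the controls, and its part in the HERPUD1 result was not tested.

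**Figure D3:**
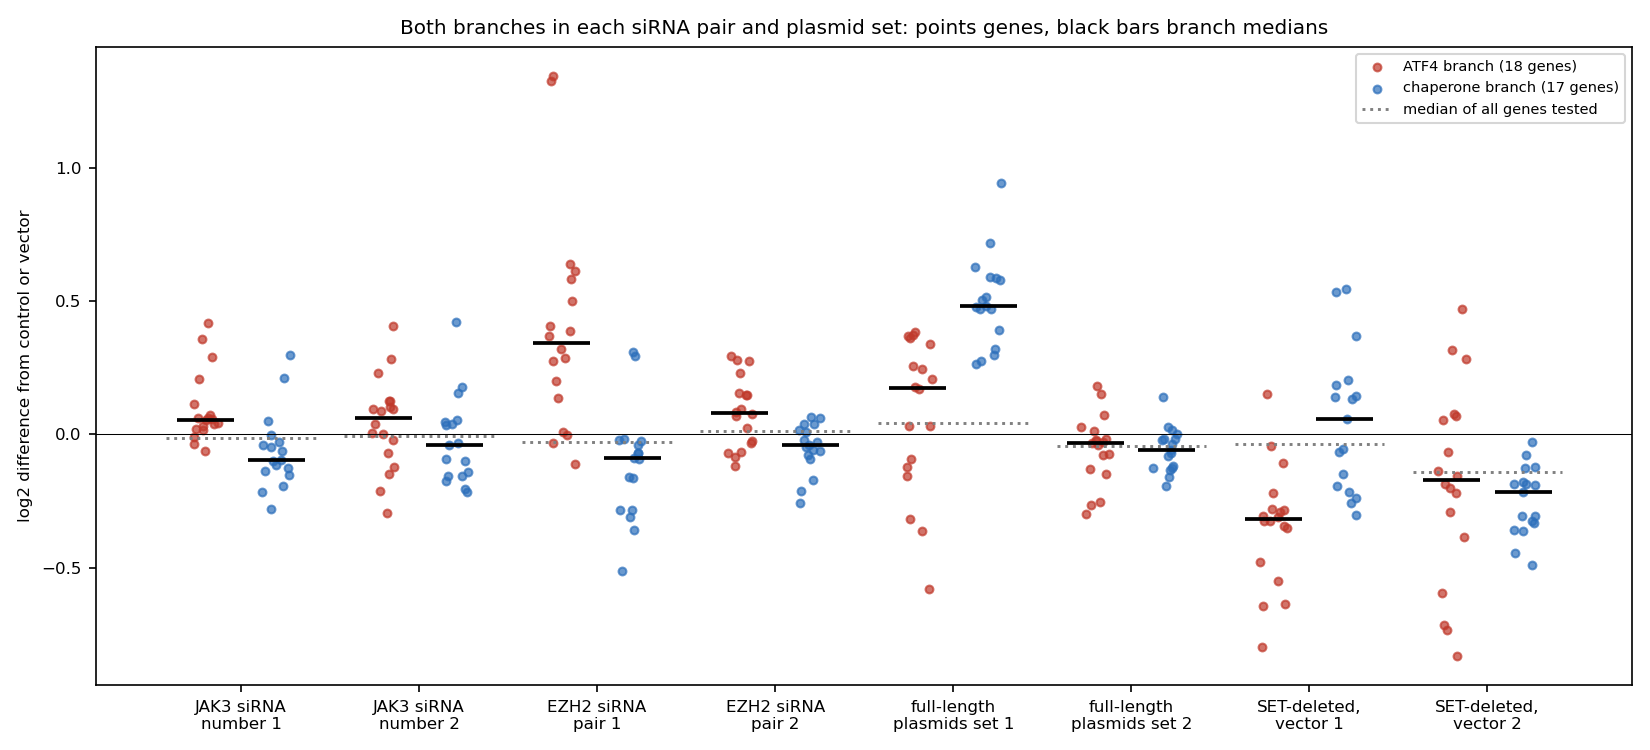
Log2 difference of each tested gene from its control or vector, for 2 JAK3 siRNA numbers, 2 EZH2 pairs, 2 plasmid sets and the single SET-deleted array against each vector. Black bars are branch medians and dotted lines medians of all genes tested. The ATF4 branch is the higher in EZH2 pair 1, with 0.344 against -0.090, and the chaperone branch is the higher in plasmid set 1, with 0.483 against 0.173.

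No gene passed the adjusted threshold when the 6 full-length plasmid arrays were compared with the 2 vector arrays. EZH2 itself, at a log2 change of 1.85 ± 0.35 (unadjusted p = 0.000348), had an adjusted p of 1.0 in limma, so the absence of calls says nothing about the 38 genes. In limma 0% of 14410 genes passed the adjusted threshold, and at an unadjusted p under 0.05 it was 0 of the 38 and 0.0694% of all genes. The chaperone branch had 17 of 17 log2 changes above 0, against 53.6% of all genes, with a median of 0.217. The ATF4 branch had 11 of 18, with a median of 0.029. The pooled values combine sets with unlike values. In set 1 the medians were 0.483 for the chaperone branch and 0.173 for the ATF4 branch, beside 0.043 for all genes. In set 2 they were -0.059 and -0.032, beside -0.043 for all genes. The other lists also had unlike medians in the sets. In set 1 the median was 0.348 for the other ATF4-pathway genes (20 of 24 above 0), 0.451 for the other genes of ER folding and export (28 of 30) and 0.311 for the genes around eIF2 (12 of 12). In set 2 these medians were -0.151, -0.129 and -0.139, with 4 of 24, 3 of 30 and 0 of 12 above 0.

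In set 1 all 3 plasmid arrays lay above vector 1 for 17 of 17 chaperone-branch genes, against 37.0% of all genes. For the ATF4 branch this held for 10 of 18, and 4 of 18 lay below vector 1 on all 3 arrays, against 28.0% of all genes. The 3 comparisons share vector 1, a single array, so they are not independent. XBP1 read 389 on vector 1 and 549, 656 and 558 on the arrays titled Y244D, Y244A and WT. HSPA5 read 1665 on vector 1 and 2463, 2925 and 2136 on the same arrays. DNAJB11, a BiP co-chaperone, had the largest difference, from 284 on vector 1 to 463.5, 672 and 525.8. PDIA6 read 1162 on vector 1 and 1613, 2074 and 1728. The array titled Y244A was the highest of set 1 for each of these 4 genes. HERPUD1 was at 418 on vector 1 and 549, 636 and 559 on the plasmid arrays.

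A fit with an effect for each set gave no gene past the adjusted threshold. Within set 1, 12 of 17 chaperone-branch genes and 2 of 18 ATF4-branch genes had an unadjusted p under 0.05, against 15.3% of all genes, and 55.0% of all genes were above 0. The smallest adjusted p was 0.281, shared by many genes. DNAJB11 was at 0.945 ± 0.23 within set 1 and XBP1 at 0.59 ± 0.18. Of the sensors EIF2AK3 was at 0.82 ± 0.20 and ATF6 at 0.47 ± 0.20, while ERN1 was at -0.03. ATF4 was at 0.18 and DDIT3 at 0.25. STC2 stood on the other side at -0.58 ± 0.20, with 64.7 on vector 1 and 40.7, 37.9 and 52.4 on the plasmid arrays. NUPR1, a small stress-induced nuclear protein, read 79.1 on vector 1 and 74.8, 55.8 and 55.7 on the plasmid arrays.

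Set 2 gave other values. All 3 plasmid arrays lay above vector 2 for 2 of 17 chaperone-branch genes and below it for 8, against 17.9% and 31.9% of all genes. For the ATF4 branch the counts were 1 and 6 of 18. XBP1 read 481 on vector 2 and 487, 426 and 497 on the arrays titled Y244D, Y244A and WT. HSPA5 read 1830 on vector 2 and 1888, 1871 and 1831. DNAJB11 read 509 on vector 2 and 522, 401.5 and 478.5, and PDIA6 read 1608 and 1502, 1275 and 1451. Within set 2 none of the 38 genes had an unadjusted p under 0.05, against 0.0902% of all genes, and 41.1% of all genes were above 0. Tested as set 1 effect minus set 2 effect, 9 of 38 genes had an unadjusted p under 0.05, against 12.2% of all genes, and none passed the adjusted threshold (limma, smallest adjusted p = 0.4).

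**Figure D4:**
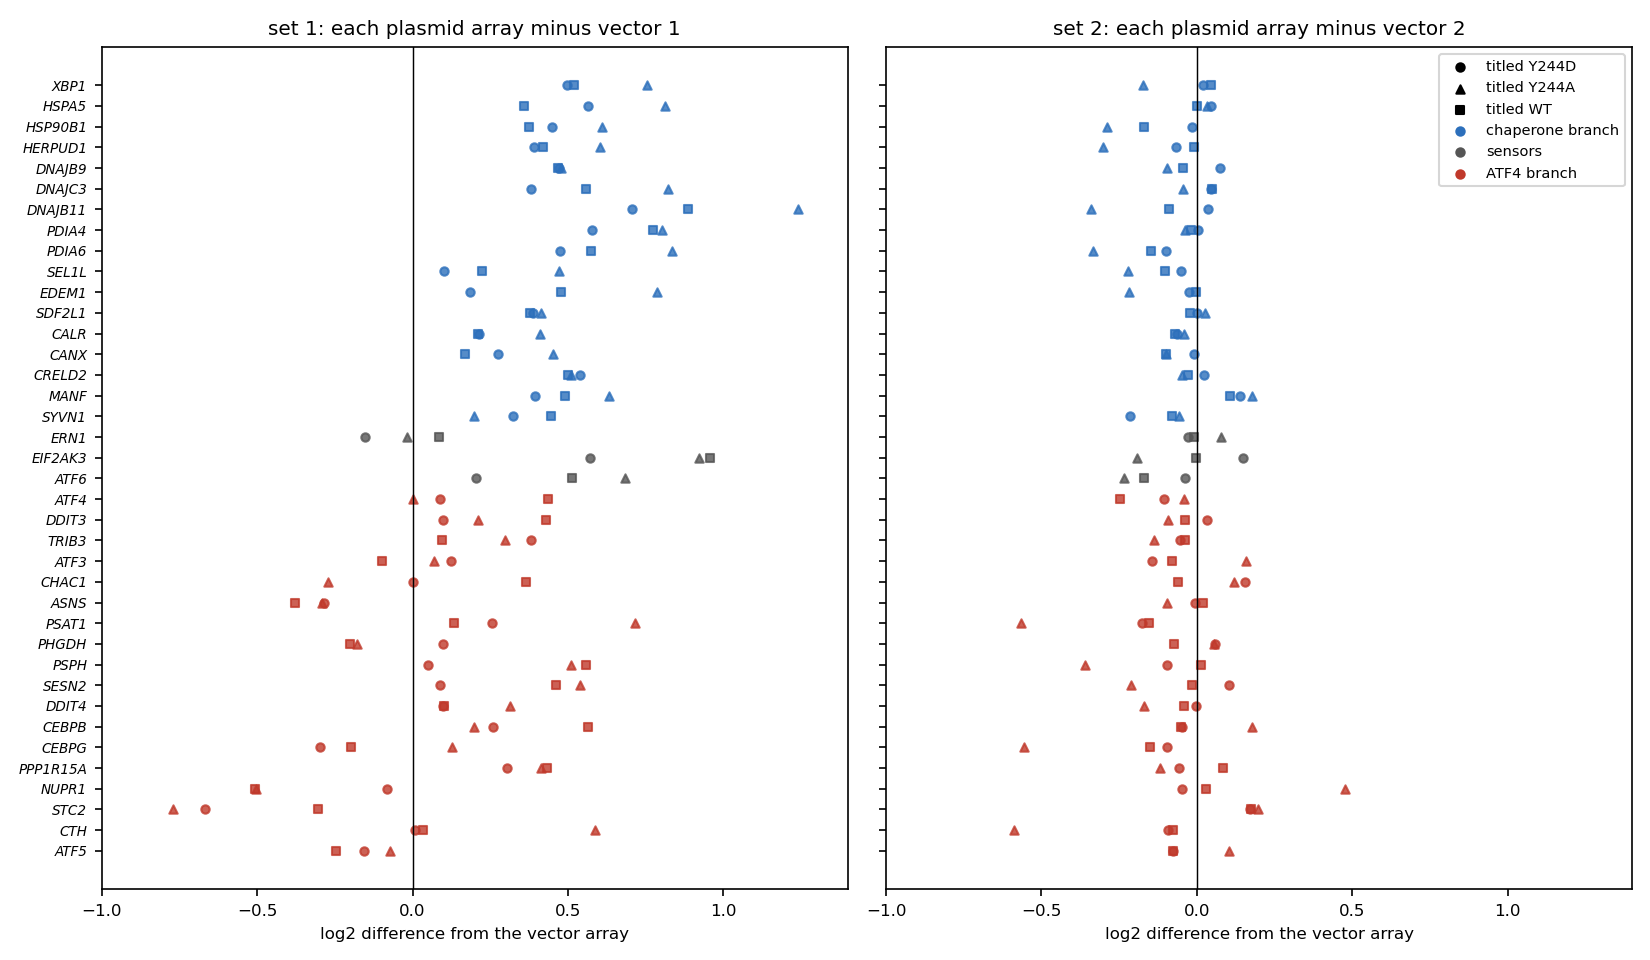
Log2 difference of each plasmid array from the vector array of its set, for 38 genes, set 1 on the left and set 2 on the right, with circles, triangles and squares for arrays titled Y244D, Y244A and WT. All 17 chaperone-branch genes (blue) lie right of 0 in set 1, and 2 of 17 do so on all 3 arrays in set 2.

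The vector arrays themselves differed. Vector 1 minus vector 2 had a median of -0.253 over the chaperone branch and 0.208 over the ATF4 branch, beside -0.052 over all genes. ATF6 was at -0.97, EIF2AK3 at -0.95, DNAJC3, an inhibitor of eIF2 kinases, at -0.88 and DNAJB11 at -0.84. NUPR1 was at 0.76, STC2 at 0.76 and CHAC1 at 0.71. Vector 1 had the smallest interquartile range, 1.79, against 2.183 on vector 2. Its part in the set 1 difference was not tested. With that range entered as a covariate, the pooled medians were 0.219 for the chaperone branch and 0.040 for the ATF4 branch. That fit pools both sets, so it does not address the set 1 difference. Without vector 1 the pooled chaperone median was 0.098, with 10 of 17 genes above 0, and without vector 2 it was 0.352. Under quantile normalization the chaperone median of set 1 stayed above 0 while the ATF4 median turned to -0.034.

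The arrays titled Y244D and Y244A could not be separated. In limma no gene passed, with 0% of all genes at either the adjusted or the unadjusted threshold, and 41.4% of all genes had a log2 difference above 0. The medians of Y244D minus Y244A were -0.023 for the ATF4 branch, with 8 of 18 genes above 0, and -0.063 for the chaperone branch, with 4 of 17. The widest values were 0.15 ± 0.42 for CHAC1 and -0.13 ± 0.20 for ATF5 in the ATF4 branch, and 0.08 ± 0.23 for DNAJB9 and -0.20 ± 0.27 for EDEM1 in the chaperone branch. CHAC1 read 228 and 155 on the Y244D arrays and 189 and 151.5 on the Y244A arrays. With constructs read from the transfection entries instead, the medians were -0.031 and -0.122, and 0 of the 38 genes passed, against 0% of all genes. Each of these 4 differences was smaller than its standard error, with 2 arrays a construct.

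The SET-deleted plasmid was hybridised once and has no replicate check. EZH2 read 1471 on that array. ATF4 read 478.5, DDIT3 151, XBP1 374 and HSPA5 1734. Against vector 1 the ATF4-branch median was -0.318, with 1 of 18 genes above 0, and the chaperone-branch median was 0.058. The median of all genes was -0.037 there, with 45.9% above 0. Against vector 2 the medians were -0.170 and -0.218, with 0 of 17 chaperone-branch genes above 0, beside -0.143 for all genes. PSAT1, at 153, was the lowest of all 17 arrays, and HERPUD1 at 340 was the lowest of the plasmid arrays. The label gives that array no set number, so neither vector is its known partner.

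Levels were also set side by side across all arrays. ATF4 read 254 to 346 (median 298) on the 8 siRNA arrays and 464 to 1127 (median 550.3) on the 9 plasmid arrays, with no overlap. DDIT3 read 75.4 to 118 (median 93.4) and 151 to 257.5 (median 180). CHAC1, PPP1R15A and SYVN1 were also higher on every plasmid array than on any siRNA array. PSAT1 went the other way, with 431 to 572 on siRNA arrays and 153 to 389 on plasmid arrays, as did CEBPG. Thus 4 of 18 ATF4-branch genes were higher and 2 lower with no overlap, against 10.1% and 20.3% of all genes, and 1 and 0 of 17 chaperone-branch genes. The share of the ATF4 branch without overlap, 33.3%, is near the 30.4% of all genes and is not a result about the branch. XBP1 read 382.5 to 458 and 374 to 656, HSPA5 read 1263 to 1758 and 1665 to 2925, and both overlapped. The siRNA and plasmid arrays differ in the spread of their values and no label gives a batch, so type of transfection and batch cannot be told apart, and no test was made.

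**Figure D5:**
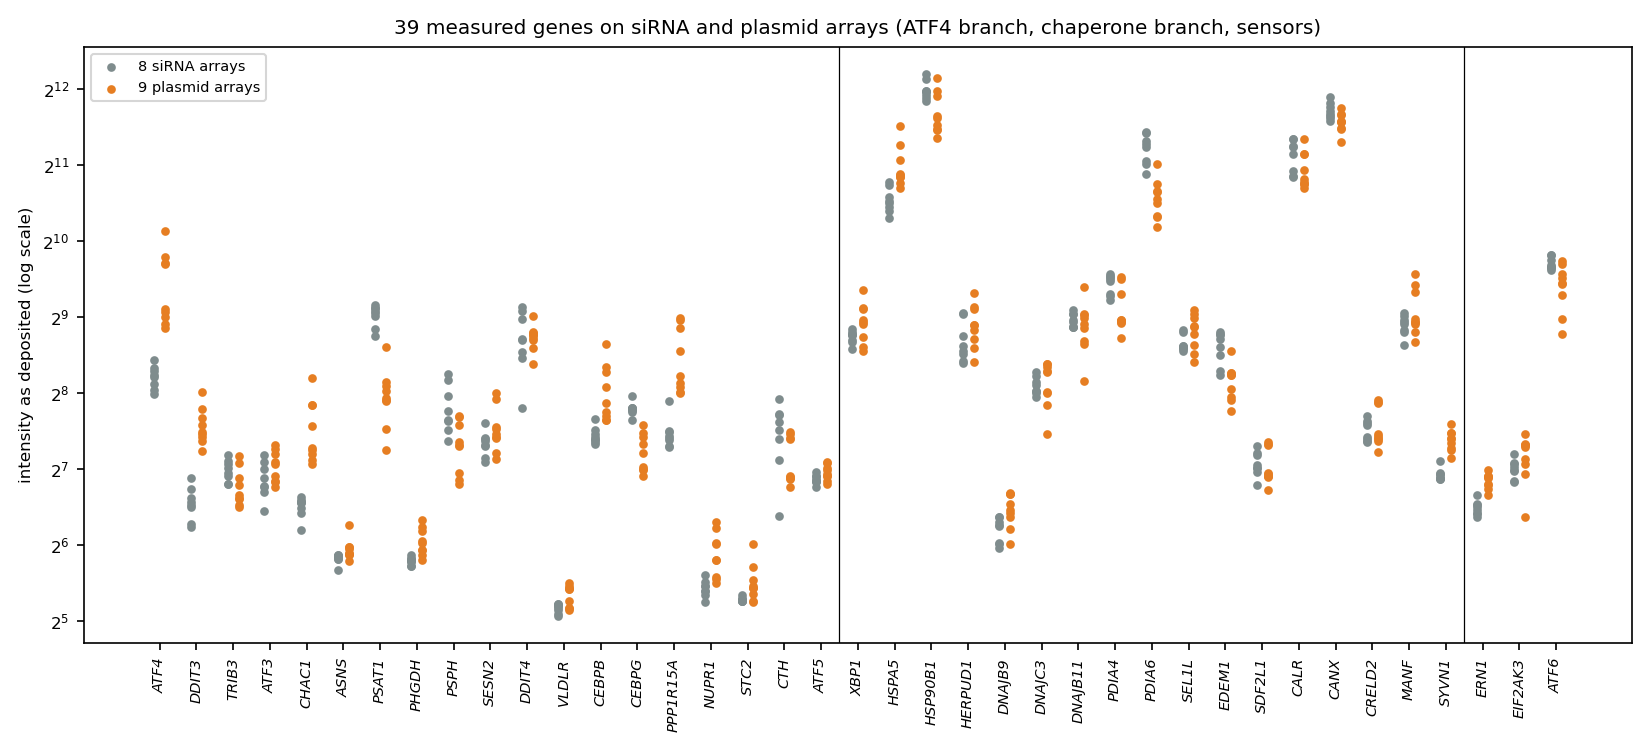
Intensity (log axis) of the 39 measured genes on 8 siRNA arrays (grey) and 9 plasmid arrays (orange), ordered as ATF4 branch, chaperone branch and sensors. ATF4, DDIT3, CHAC1, PPP1R15A and SYVN1 are higher on every plasmid array, and PSAT1 and CEBPG are higher on every siRNA array.

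Levels of different genes on an array cannot be ranked against each other by probe brightness. Within genes, the spread over the 8 siRNA arrays was widest in the ATF4 branch for CTH, from 83.4 to 241, and DDIT4, from 223 to 560. It was narrow for STC2, from 38.2 to 40.4, a gene near the lower end of the tested range. Of the chaperone branch, HSP90B1 ran from 3664 to 4700, CANX from 3069 to 3816, PDIA6 from 1890 to 2769 and PDIA4, a disulfide isomerase, from 600.4 to 756. CRELD2, a secreted ER protein, ran from 163 to 208, and HERPUD1 from 335 to 529.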

How the data were processed

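The deposited values are linear intensities per probe set, 28869 on each of 17 arrays. Per the labels' protocols, 100 ng of TRIzol-extracted RNA was amplified and biotin-labelled. The authors' background correction and normalization are not given in the sources used here. Intensities were taken to log2 as deposited. Of the probe sets 19310 carry 1 symbol, 1752 several and 7807 none, per the platform annotation, which can be old. The brightest single-symbol probe set stood for each of 18377 genes, and genes whose mean fell under the 30th percentile over probe sets were not tested. limma 3.58.1 (R 4.3.3; lmFit, eBayes) was fitted to the 8 siRNA arrays together, with the EZH2 pair as a block because the titles tie those arrays, and to the 2 vector and 6 full-length plasmid arrays. P-values were adjusted by Benjamini-Hochberg over all genes tested. The fits were also run on simulated data with independent noise and no offsets between arrays, sets or pairs. That run checks the code and not the spread of these arrays. Branch medians carry no test.

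Values were given by array for ATF4, DDIT3, XBP1 and HSPA5, for each gene past the threshold, and for the largest rise and fall per comparison and branch. JAK3 and EZH2 served as label checks. Members and lists were chosen with earlier results of these data known. No array repeated another's values. Deviations of same-numbered arrays correlated at 0.151 in the JAK3 arm and -0.0857 in the EZH2 arm. Those of the vector with the Y244D, Y244A and WT arrays of its set correlated at 0.889, 0.0744 and 0.678 in set 1 and 0.902, -0.059 and 0.883 in set 2. Alternatives covered normalization, filter, probe set choice, array weights, blocks and leaving out each array. The separate fit of each plasmid set was added after seeing the data.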

Additional observations from a re-analysis of the deposited data

Results flagged for a closer look

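No single plasmid array stood apart from the other 5 full-length arrays by Dixon's criterion in any of the 38 genes. For 15 genes, all 3 plasmid arrays of set 1 moved one way from their vector and all 3 arrays of set 2 moved the other way. These are 39.5% of the 38 genes, and 29.0% of all 14410 genes tested met the same condition. In the chaperone branch the set 1 effect exceeded the set 2 effect by 0.82 for PDIA6, 0.64 for HSP90B1, 0.60 for HERPUD1, 0.56 for EDEM1, 0.44 for SYVN1, 0.39 for SEL1L, 0.37 for CANX and 0.34 for CALR on the log2 scale. The sensor ATF6 differed by 0.61. In the ATF4 branch the difference was 0.67 for PSAT1, 0.46 for CTH, 0.33 for TRIB3, 0.31 for ATF4 and 0.24 for DDIT4. STC2 differed in the other direction, by -0.76. In limma's test of this difference none of the 15 passed the adjusted threshold, the smallest adjusted p being 0.4. The 3 arrays of a set share 1 vector array.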

How the results depend on the processing

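The calls were narrow. For JAK3 siRNA, where 1 gene passed, 0 passed without the brightness filter, against 0.512% of all genes. With same-numbered arrays as a replicate block 0 passed, against 0.719%. Array weights gave 3, against 4.83% of all genes, and only the 4 arrays of that arm gave 3, against 3.61%. Leaving out each array kept the HERPUD1 change between 0.295 and 0.424 on the log2 scale. For EZH2 siRNA, where 2 passed, 1 passed under quantile normalization, against 0.387% of all genes, and 1 under median centring, against 1.33%. Without the filter or with array weights 0 passed, against 0% of all genes. With no replicate block 0 passed, against 0.138%. Leaving out each array gave 0 to 13, against 0% to 10.4% of all genes. Each of these fits rests on a lone pair, and the share of all genes moved with the count. That range is therefore not a measure of how stable the 38 genes are. For the difference between knockdowns, leaving out each array gave ATF4-branch medians from -0.335 to -0.035. Chaperone-branch medians ran from -0.051 to 0.043, beside -0.021 to 0.023 for all genes. The labels do not state what the plasmid set numbers mark, and not every vector pair within a set correlated above 0.1. A set term as a replicate block left 0 calls for the plasmids, against 0% of all genes. Over all alternatives the log2 change with EZH2 siRNA ran from 0.294 to 0.612 for DDIT3 and from 0.278 to 0.406 for PSAT1. For HERPUD1 with JAK3 siRNA it ran from 0.295 to 0.424. For the full-length plasmids 0% of all genes passed under each normalization, filter, probe set choice, weighting and block. The same held for Y244D against Y244A with a set term and with constructs read from the transfection entries. The absence of calls in these comparisons therefore says nothing about the 38 genes. Quantile normalization turned the ATF4-branch median of set 1 to -0.034 and brought the chaperone-branch median of the SET-deleted array against vector 2 to 0.0. The cause was not tested. In set 2 the ATF4-branch median ran from -0.072 to 0.014 over the alternatives, while the chaperone-branch median stayed below 0. The sign of the ATF4 median minus the chaperone median was kept under all 4 alternatives in both EZH2 pairs, both JAK3 numbers and both plasmid sets. In plasmid set 2 that difference was only 0.025 to 0.029. On its arrays titled Y244D, Y244A and WT, taken singly, it was -0.053, 0.001 and -0.019. For the SET-deleted array against vector 2 it ran from -0.011 to 0.063.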
